A study of Mus musculus with 15 samples.

Results

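The cornified envelope genes encode the proteins that are cross-linked into the tough shell of the outermost cells of the epidermis. Members were taken by name from the deposited table of gene values: every row whose symbol starts with Sprr or Lce, and the rows of Lor, Ivl, Flg2, Hrnr, Rptn, Crnn, Tchhl1, Cdsn, Krtdap, Sbsn and Dmkn. This gave 48 of the 24543 genes of the table. Flg, the filaggrin gene, is named by the same rule and is not analysed here.

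The values come from RNA sequencing of whole mouse skin in 15 libraries, and the title of the series names the question: whether epidermal SOX2 speeds the closing of wounds by way of EGFR ligands and MEK/ERK signalling. All mice carried K14CreERTM/LSL-SOX2 on a 129/SvEv/C57/B16 X CD-1 background. The keratin 14 promoter, active in basal keratinocytes and follicles, drives the Cre of this line, which needs tamoxifen to remove a stop cassette before SOX2. Skin received tamoxifen (5 mg/ml in 200 µl of ethanol) or ethanol alone as vehicle. The 4 groups were wounded set A (day 4, n = 4), wounded set B (day 4, n = 4), unwounded tamoxifen skin (day 0, n = 3, replicates 2 to 4) and unwounded vehicle skin (day 0, n = 4). No source used here gives the ages or says whether each library is a separate mouse, so the p-values measure the spread between these libraries, which may be technical.

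The wounded libraries carry conflicting treatment names. For set A the sample records say tamoxifen and the gene tables say vehicle. For set B the records say vehicle and the tables tamoxifen. In the deposited sample sheet the column of old groups matches the records and the column of new groups matches the tables. A difference of set A from set B is therefore a difference of tamoxifen from vehicle by the records and of vehicle from tamoxifen by the gene tables. Tamoxifen without the transgene was not among the groups, nor was day 4 skin without a wound, so tamoxifen and SOX2, and wound and day, cannot be told apart.

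Keratinocytes that leave the basal layer stop dividing, fill with keratin filaments and assemble the cornified envelope beneath the plasma membrane. Involucrin and envoplakin start the scaffold, loricrin makes up most of its mass, and transglutaminases join these proteins to small proline-rich (SPRR) and late cornified envelope (LCE) proteins. The SPRR proteins act as bridges between the larger ones, and Sprr1 and Sprr2 genes are known to be induced in stressed and wounded epidermis, while the LCE3 genes are known for induction after barrier damage. Most of these genes lie side by side in the epidermal differentiation complex.

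In the present set, 44 of the 48 genes lay on chromosome 3, within 1.39 Mb from Lor (starting at 92080271) to Tchhl1 (ending at 93471980) in build mm10 with GENCODE M21. Sbsn, Dmkn and Krtdap neighbour each other on chromosome 7 and Cdsn lies on chromosome 17. By role the set held 2 scaffold proteins (Lor and Ivl), 5 proteins of the S100-fused type, 4 corneodesmosin and secreted proteins, 14 Lce1 genes, 7 Lce3 and Lce6 genes, 4 genes of the Sprr1, Sprr3 and Sprr4 kind, and 12 Sprr2 genes.

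Copies within a family are alike in sequence, which bears on how far their values can be separated. The first 90 coding bases of 6 Sprr2 genes, all on chromosome 3 and taken from the GENCODE M21 models on mm10, are shown because these copies moved apart below, and capitals mark bases that differ from Sprr2a1.
Sprr2a1: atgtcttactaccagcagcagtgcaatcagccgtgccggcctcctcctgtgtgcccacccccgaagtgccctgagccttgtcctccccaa
Sprr2a2: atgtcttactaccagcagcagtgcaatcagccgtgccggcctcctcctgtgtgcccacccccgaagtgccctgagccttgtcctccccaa
Sprr2a3: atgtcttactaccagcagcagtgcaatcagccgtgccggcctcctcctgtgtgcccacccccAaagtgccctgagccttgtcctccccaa
Sprr2b: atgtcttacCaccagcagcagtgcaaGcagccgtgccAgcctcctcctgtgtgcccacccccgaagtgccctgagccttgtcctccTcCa
Sprr2d: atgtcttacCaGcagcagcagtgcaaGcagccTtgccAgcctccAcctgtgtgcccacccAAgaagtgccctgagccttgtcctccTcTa
Sprr2h: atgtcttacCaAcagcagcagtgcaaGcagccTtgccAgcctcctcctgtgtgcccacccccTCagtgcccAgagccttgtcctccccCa
Sprr2a1 and Sprr2a2 did not differ in this stretch, and Sprr2d differed from Sprr2a1 at 10 of the 90 bases. Over the whole coding sequences, pairs of Sprr2 genes were 53.7% to 100% identical (median 66.8% over 66 pairs). The 6 Lce3 genes were 94.3% to 99.3% identical, the Lce1 genes 43.6% to 95.7% (median 83.4%), and Sprr1a and Sprr1b 78.4%. The deposited values of Sprr2a1 and Sprr2a2 were equal in all 15 libraries, so they are 1 measurement. Both are nevertheless counted among the 12 Sprr2 genes and in the Sprr2 sum, and counts below include this value as 2 genes. Values of single Sprr2 and Lce copies are uncertain where reads were shared between copies.

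Promoters were searched for the letters of a few known motifs, among them AP-1, ETS and SOX. The 100 bases before the RefSeq start on build GRCm38.p6 are shown for a choice of members. The AP-1 motif TGANTCA and the TATA motif TATAAA are in capitals.
Lor, chr3:92083143-92083242, minus strand: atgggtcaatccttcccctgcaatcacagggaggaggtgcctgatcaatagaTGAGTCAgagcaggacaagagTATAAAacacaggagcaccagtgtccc
Crnn, chr3:93144689-93144788, plus strand: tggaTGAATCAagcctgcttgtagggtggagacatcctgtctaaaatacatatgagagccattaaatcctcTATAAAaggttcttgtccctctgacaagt
Rptn, chr3:93393599-93393698, plus strand: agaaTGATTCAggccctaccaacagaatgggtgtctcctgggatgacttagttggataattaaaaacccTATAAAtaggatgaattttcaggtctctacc
Tchhl1, chr3:93468654-93468753, plus strand: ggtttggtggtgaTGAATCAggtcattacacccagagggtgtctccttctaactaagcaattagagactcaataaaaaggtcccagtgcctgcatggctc
Sprr1a, chr3:92485882-92485981, minus strand: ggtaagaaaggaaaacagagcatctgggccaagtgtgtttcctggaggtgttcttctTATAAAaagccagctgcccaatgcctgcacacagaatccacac
Sprr1b, chr3:92438780-92438879, minus strand: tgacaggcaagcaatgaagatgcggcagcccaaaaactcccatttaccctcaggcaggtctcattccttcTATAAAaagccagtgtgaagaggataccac
Sprr2d, chr3:92339040-92339139, plus strand: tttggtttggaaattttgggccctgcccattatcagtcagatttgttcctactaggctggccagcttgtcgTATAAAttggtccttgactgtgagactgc
Sprr2h, chr3:92385585-92385684, plus strand: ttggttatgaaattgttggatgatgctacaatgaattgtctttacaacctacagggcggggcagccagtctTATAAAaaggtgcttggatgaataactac
Lce1c, chr3:92679147-92679246, plus strand: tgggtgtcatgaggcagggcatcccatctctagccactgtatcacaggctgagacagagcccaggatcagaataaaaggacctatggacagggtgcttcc
Lce3c, chr3:92944386-92944485, plus strand: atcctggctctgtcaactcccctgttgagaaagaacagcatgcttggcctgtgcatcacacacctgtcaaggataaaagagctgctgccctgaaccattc
Over the 250 bases before the start, both strands, the AP-1 letters (which read the same on either strand) were in 20 of the 48 RefSeq promoters of 45 matched members (41.7%) and in 2217 of all 32851 promoters (6.75%). They were in 7 of 10 Sprr2 promoters, 4 of 5 of the S100-fused type, both Lor and Ivl, 5 of 7 of the corneodesmosin and secreted kind and 2 of 4 of Sprr1, Sprr3 and Sprr4. They were in 0 of 13 Lce1 promoters and 0 of 7 Lce3 and Lce6 promoters. In Sprr1a they began 146 and 116 bases before the start, in Sprr1b 111, and in Sprr2d and Sprr2h 193 and 198. TATAAA was in 20 of the 48 (41.7%, against 12.4% of all promoters). Sprr2a3, Sprr2b, Sprr4 and Lce1m, which also had large differences, are not shown above. Of these, Sprr2a3 and Sprr4 held neither the AP-1 nor the TATA letters, Sprr2b held both and Lce1m the TATA letters. The SOX letters ACAAAG were in 8 of the 48 (16.7%, against 16.5% of all). By class they were in 4 of 10 Sprr2 promoters (Sprr2a1, Sprr2a2, Sprr2a3 and Sprr2e) and 3 of 13 Lce1 promoters. They were also in 1 of 7 Lce3 and Lce6 promoters and in 0 of the other classes. GGGTGTG, bound by KLF factors, was in 2 of the 48 (4.17%, against 6.93%) and CCGGAAG, bound by ETS factors, in 0 (against 6.91%). Neighbouring copies share promoter sequence, so these counts are not over independent sequences. A match describes letters and is not a measured site.

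All levels below are in RPKM, a read density per gene length and library size. Depth was 39277860 to 75102345 alignments per library. At the depth of each library 3 reads on a gene of 1 kb are worth 0.0399 to 0.0764 RPKM, counting error only. Sox2 spanned 1.87 to 3.82 RPKM in set A, 2.07 to 2.64 RPKM in set B, 1.98 to 2.89 RPKM in tamoxifen skin before wounding and 1.85 to 2.57 RPKM in vehicle skin before wounding. The ranges overlap and so cannot test the treatment names. No source used here says whether transcripts of the transgene were counted as Sox2. Some libraries stood apart from others of their group. Replicate 2 of set A carried hair genes (11 inner root sheath and hair shaft markers, summed to 1426 RPKM, against 9.5 to 40.3 RPKM in replicates 1, 3 and 4), and replicate 4 of set A, the shallowest library, was high in many members. In unwounded skin, replicate 2 of the tamoxifen group and replicates 1 and 2 of the vehicle group differed from the others in Sprr and Lce3 genes.

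**Figure D1:**
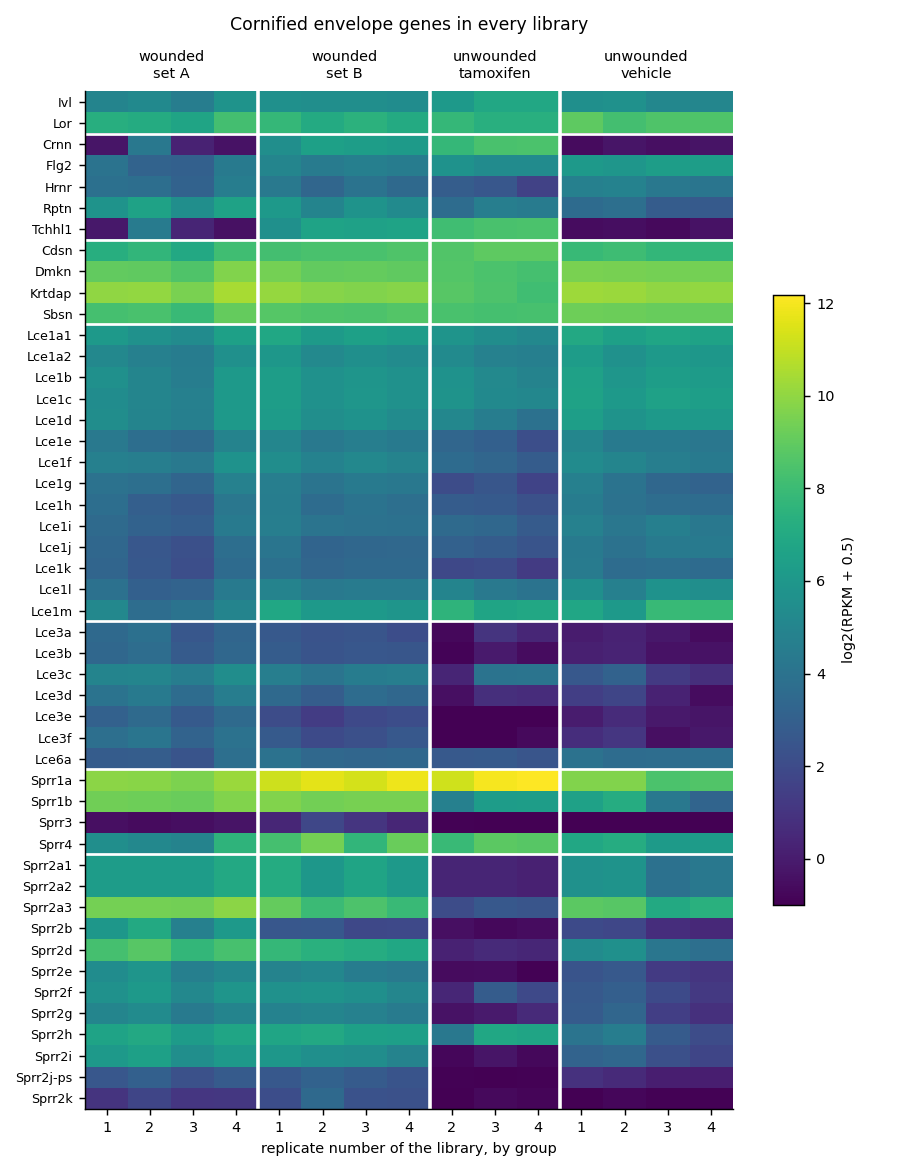
Heat map of all 48 cornified envelope genes (rows, by role) in the 15 libraries (columns, by group and replicate number), coloured by log2(RPKM + 0.5) with yellow high. Lce3 and most Sprr2 rows are brighter in wounded than in unwounded columns, with overlap in Sprr2a3, Sprr2b and Sprr2h, and Crnn and Tchhl1 are bright in unwounded tamoxifen skin and set B.

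In unwounded skin the tamoxifen and vehicle groups differed across most of the cornified envelope genes, and the families went in different directions. Sprr2a and Sprr2d copies, Lor, Krtdap and 13 of 14 Lce1 genes were lower with tamoxifen. Sprr1a, Sprr4, Ivl, Cdsn, Rptn and, most of all, Crnn and Tchhl1 were higher. Of the 47 members with at least 1 RPKM in at least 3 libraries, 8 rose, 31 fell and 8 did not pass limma's test (adjusted p under 0.05 over 13922 genes). In the same comparison 69.4% of all tested genes passed, 34.7% in each direction. In 6 members all tamoxifen libraries were above all vehicle libraries and in 30 all were below, where 35.4% and 34.2% of all tested genes did so (69.6% in all). The median log2 difference was -1.09 over the members and 0 over all genes tested. Of the 31 that fell, Lce3e, Lce3f and Sprr2j-ps met the filter only through wounded libraries. In a fit of the unwounded groups alone these members were not tested. In whole skin, fewer cells of a type and less RNA per cell cannot be told apart, here and in the later comparisons.

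Among the scaffold genes, Lor, which encodes loricrin, was at 221, 157 and 161 RPKM in the tamoxifen libraries, against 479, 303, 377 and 373 RPKM in the vehicle libraries. Ivl, which encodes involucrin, was at 68.5, 119 and 120 RPKM with tamoxifen, against 47.4, 51.2, 34.2 and 32.1 RPKM with vehicle. Every tamoxifen library was below every vehicle library for Lor and above every vehicle library for Ivl. The log2 difference was -1.09 ± 0.30 (SE) for Lor (limma adjusted p = 0.00493) and 1.28 ± 0.26 for Ivl (6e-04).

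The S100-fused type proteins join a calcium-binding domain to long repeats. They lie in granules of the epidermis or, in trichohyalin-like form, in the hair follicle. Crnn, which encodes cornulin, was at 219, 336 and 348 RPKM with tamoxifen, against 0.163, 0.337, 0.235 and 0.307 RPKM with vehicle. Tchhl1, trichohyalin-like 1, was at 283, 338 and 347 RPKM with tamoxifen, against 0.177, 0.213, 0.139 and 0.271 RPKM with vehicle. For both genes every vehicle library was under 1 RPKM and every tamoxifen library above 200 RPKM.

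The log2 differences of 8.61 ± 0.82 for Crnn (limma adjusted p = 8.54e-07) and 8.85 ± 0.85 for Tchhl1 (8.63e-07) understate the ratio, since 0.5 was added to each value. Hair markers moved with them. All 11 inner root sheath and hair shaft markers passed and were higher, with a median log2 difference of 9.56, and their sum was 14785 to 22120 RPKM with tamoxifen and 9.52 to 20.7 RPKM with vehicle, with none of the 11 at 0 in every library. The part of the hair follicle in the Crnn and Tchhl1 values was not tested. Without Crnn and Tchhl1, 6 members rose and 31 fell.

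Of the other S100-fused genes, Rptn, which encodes repetin, averaged 19.6 ± 6.57 RPKM with tamoxifen (SD, n = 3) and 9.57 ± 3.77 RPKM with vehicle (n = 4), a log2 difference of 1.02 ± 0.38 (limma adjusted p = 0.0271). The groups overlapped. Flg2, a filaggrin relative, averaged 44.1 ± 6.85 RPKM with tamoxifen and 71.9 ± 9.67 RPKM with vehicle (-0.70 ± 0.27, 0.0323), and Hrnr, which encodes hornerin, 4.99 ± 2.25 RPKM with tamoxifen and 22.7 ± 5.56 RPKM with vehicle (-2.14 ± 0.36, 0.000117). For Flg2 and Hrnr the groups did not overlap. The calls of Flg2 and Rptn were lost without replicate 3 or 4 of the tamoxifen group or of the vehicle group (adjusted p = 0.0709 to 0.0941 for Flg2 and 0.0731 to 0.108 for Rptn).

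The secreted proteins fell together, and corneodesmosin did not. Krtdap, a secreted differentiation-associated protein, was at 437, 364 and 281 RPKM with tamoxifen, against 1219, 1178, 1015 and 1051 RPKM with vehicle. Dmkn, which encodes dermokine, was at 405, 351 and 318 RPKM with tamoxifen, against 726, 725, 697 and 686 RPKM with vehicle. For both, all tamoxifen libraries lay below all vehicle libraries, at log2 differences of -1.65 ± 0.19 for Krtdap (limma adjusted p = 4.24e-06) and -0.99 ± 0.20 for Dmkn (0.000573).

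Sbsn, which encodes suprabasin, fell as well (324 ± 9.59 RPKM with tamoxifen and 587 ± 32.7 RPKM with vehicle, log2 difference -0.86 ± 0.18). Cdsn, which encodes corneodesmosin, the adhesive protein of the desmosomes of cornified cells, averaged 452 ± 58.9 RPKM with tamoxifen and 232 ± 29.2 RPKM with vehicle. It rose by 0.96 ± 0.22 on the log2 scale (limma adjusted p = 0.00131), with no overlap between the groups.

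The Lce1 genes, expressed late in the granular layer, fell as a block. Lce1a1 was at 56, 43.6 and 35.6 RPKM with tamoxifen, against 125, 88.3, 106 and 95.6 RPKM with vehicle (log2 difference -1.2 ± 0.24, limma adjusted p = 0.00061). The sum over the 14 genes was 305 to 506 RPKM in the tamoxifen libraries and 546 to 835 RPKM in the vehicle libraries, with no overlap. Log2 differences of the 13 that passed ran from -2.16 (Lce1k) to -0.94 (Lce1l), and 12 of the 13 did not overlap between the groups, where 34.2% of all tested genes were lower without overlap. With tamoxifen replicate 4 left out Lce1b no longer passed (adjusted p = 0.0512), and Lce1l did not pass without tamoxifen replicate 3 (0.0512) or 4 (0.0882).

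Lce1m, which lies apart from the other Lce1 genes on the far side of the Lce3 block, was the exception. It was at 187, 104 and 120 RPKM with tamoxifen, against 109, 68.9, 239 and 227 RPKM with vehicle. The groups overlapped, since the vehicle libraries themselves fell on both sides of the tamoxifen values. The log2 difference was -0.10 ± 0.45 (limma adjusted p = 0.855).

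The 6 Lce3 genes were low in unwounded skin of either treatment, with a sum of 1.17 to 19.2 RPKM in the tamoxifen libraries and 2.61 to 15.2 RPKM in the vehicle libraries. Lce3c, the most abundant of them, was at 0.791, 16 and 16.3 RPKM with tamoxifen, against 5.64, 8.26, 1.85 and 1.24 RPKM with vehicle. A single tamoxifen library, replicate 2, was below all others and its 2 companions were above them. Lce3e was listed at 0 or below 1e-06 RPKM in the 3 tamoxifen libraries and at 0.336 to 1.06 RPKM in the vehicle libraries. Lce3e and Lce3f passed as lower and the other 4 did not pass. Both Lce3e and Lce3f met the filter only through wounded libraries and were not tested in a fit of the unwounded groups alone. Lce6a, at 5.97, 6.2 and 5.13 RPKM with tamoxifen, against 15.4, 12.2, 12.8 and 13 RPKM with vehicle, also fell (log2 difference -1.14 ± 0.25, limma adjusted p = 0.00111).

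Sprr1a encodes a bridging protein that is induced in stressed keratinocytes. It was at 2405, 4139 and 4640 RPKM with tamoxifen, against 818, 828, 353 and 391 RPKM with vehicle. Every tamoxifen library lay above every vehicle library, and Sprr1a had the highest mean level of all members in the tamoxifen group. Its log2 difference was 2.70 ± 0.32 (limma adjusted p = 5.16e-06). Its neighbour Sprr4 averaged 376 ± 114 RPKM with tamoxifen and 102 ± 34.3 RPKM with vehicle (1.89 ± 0.57, 0.00921), without overlap.

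Sprr1b, the close relative of Sprr1a, did not pass. It was at 26.7, 78.7 and 80.8 RPKM with tamoxifen, against 93.1, 141, 18.6 and 9.13 RPKM with vehicle. All 3 tamoxifen libraries lay inside the vehicle range (log2 difference 0.50 ± 0.72, limma adjusted p = 0.549). Sprr3 was under the filter, at 0 to 0.0192 RPKM in all 7 unwounded libraries, at or below its floor of 3 reads.

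The Sprr2 copies, summed because reads cannot be separated with certainty, gave 26.3, 131 and 116 RPKM in the tamoxifen libraries, against 645, 641, 193 and 228 RPKM in the vehicle libraries. The groups did not overlap, and the log2 difference of the sums was -2.31, or -1.57 without replicate 2 of the tamoxifen group. Taken gene by gene, 9 of the 12 fell, 1 rose and 2 did not pass, where 34.7% of all tested genes passed in each direction. Among the 9, Sprr2j-ps met the filter only through wounded libraries. Sprr2a3 was at 3.74, 5.69 and 5.03 RPKM with tamoxifen, against 457, 426, 126 and 164 RPKM with vehicle. Sprr2d was at 0.716, 0.963 and 0.843 RPKM with tamoxifen, against 39.8, 48.2, 17.8 and 13.8 RPKM with vehicle. In both genes the lowest vehicle library was more than 10 times the highest tamoxifen library.

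These were the largest falls among the members: the log2 difference was -5.59 ± 0.41 for Sprr2a3 (limma adjusted p = 9.37e-08), -4.59 ± 0.41 for Sprr2a1 with its identical copy (5.12e-07), -4.32 ± 0.38 for Sprr2d (3.73e-07) and -3.24 ± 0.37 for Sprr2i. Sprr2h went the other way. It was at 18.7, 115 and 104 RPKM with tamoxifen, against 16.4, 23.4, 6.44 and 3.65 RPKM with vehicle, a log2 difference of 2.57 ± 0.61 (0.00206). Replicate 2 of the tamoxifen group overlapped with the vehicle libraries, and without it the difference was 3.41. Sprr2h thus made up most of the Sprr2 sum in tamoxifen skin, while Sprr2a3 did so in vehicle skin.

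**Figure D2:**
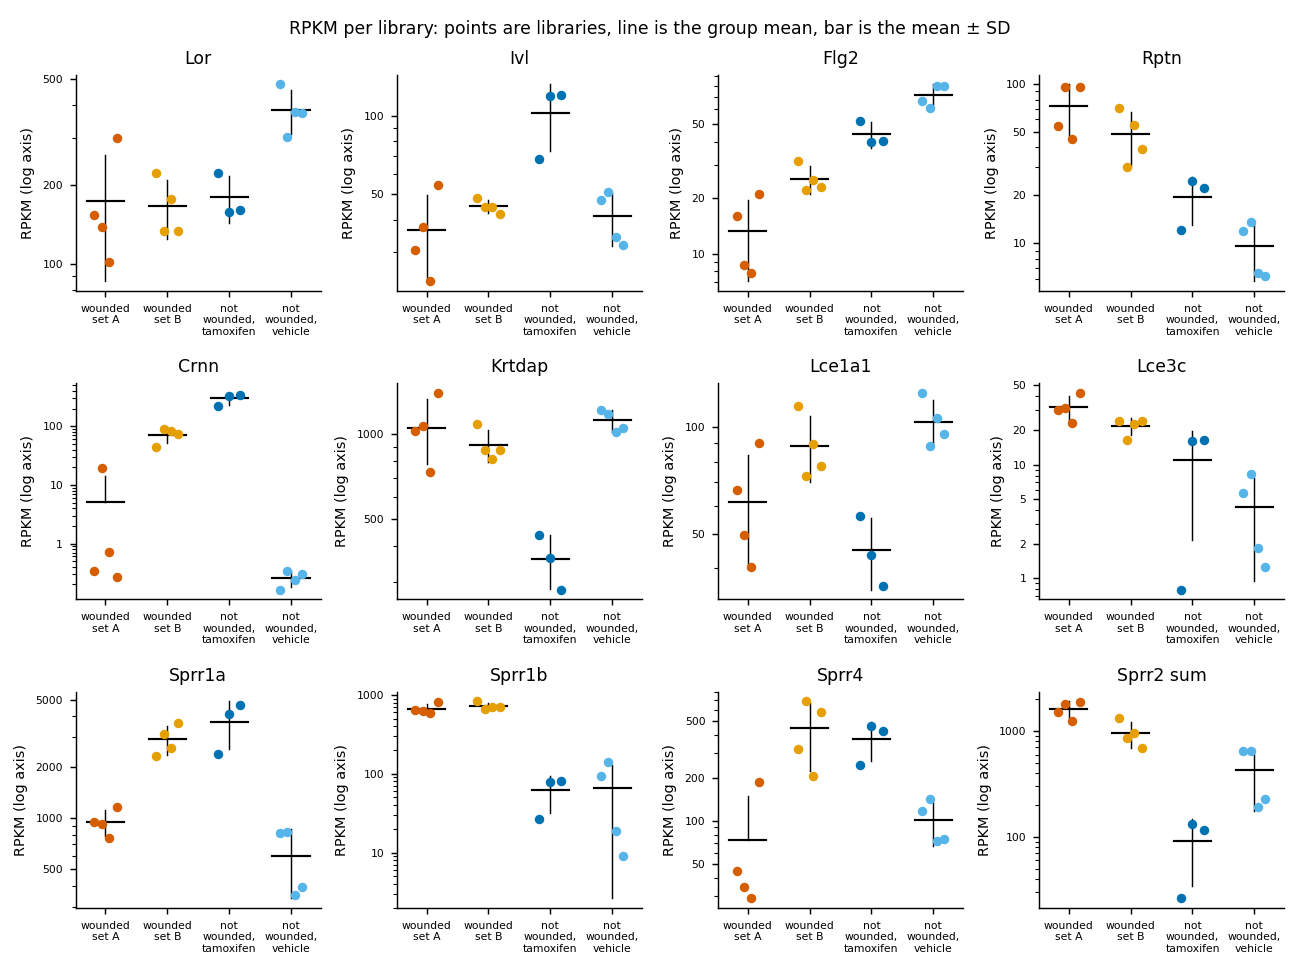
RPKM per library on log axes for 11 members and the Sprr2 sum, by group, with points for libraries, a line for the group mean and a bar for the mean ± SD (only the upper part where the SD exceeds the mean). Unwounded tamoxifen libraries lie above unwounded vehicle libraries for Ivl, Crnn, Sprr1a and Sprr4 and below them for Lor, Flg2, Krtdap, Lce1a1 and the Sprr2 sum.

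Between the wounded sets fewer members differed. Crnn, Tchhl1, Sprr4, Sprr1a, Flg2 and Cdsn were lower in set A than in set B, and Sprr2b, Sprr2a3, Sprr2d and 3 Lce3 genes were higher. Of the 47 members tested 6 were higher, 9 were lower and 32 did not pass, where 31.1% of all tested genes passed (15.6% higher, 15.5% lower). In 4 members all of set A was above all of set B and in 8 all was below, where 14.6% and 13.7% of all tested genes did so (28.3% in all). The median log2 difference was -0.17 over the members and 0 over all genes. Without replicate 4 of set A the count was 23 (4 higher and 19 lower), and without replicate 4 of set B it was 11.

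Lor was at 153, 138, 102 and 299 RPKM in set A, against 221, 134, 176 and 134 RPKM in set B. Ivl was at 30.7, 37.6, 23.3 and 54.1 RPKM in set A, against 48.6, 44.6, 44.7 and 42.1 RPKM in set B. The sets overlapped for both scaffold genes, with replicate 4 the highest library of set A, and neither passed (log2 difference -0.03 ± 0.27 for Lor and -0.37 ± 0.24 for Ivl).

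Crnn was at 0.346, 19.1, 0.713 and 0.273 RPKM in set A, against 44.5, 90.2, 81.7 and 72.8 RPKM in set B. Tchhl1 was at 0.396, 22, 0.768 and 0.261 RPKM in set A, against 49.1, 99.5, 92.3 and 100 RPKM in set B. Replicate 2 of set A alone exceeded 1 RPKM, and it stayed below all of set B. The log2 differences were -5.15 ± 0.76 for Crnn and -5.30 ± 0.78 for Tchhl1 (limma adjusted p = 0.000294 for both), and -6.25 and -6.44 without that replicate. The hair markers summed to 9.5, 1426, 40.3 and 12.6 RPKM in replicates 1 to 4 of set A, against 2661, 5004, 5467 and 4773 RPKM in set B, and all 11 passed as lower. The library of set A with the higher Crnn and Tchhl1 values was the same as that with the higher hair marker sum, and the part of hair in them was not tested. Of other markers 3 of 5 of macrophages, 3 of 6 of fibroblasts and 1 of 6 of neutrophils were higher in set A. Of basal keratinocyte markers 4 of 7 were lower. Over all tested genes 15.6% were higher and 15.5% lower, and the neutrophil count was near that share. The part of these cells was not tested either.

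Flg2 averaged 13.3 ± 6.19 RPKM in set A, with 25.3 ± 4.29 RPKM in set B (log2 difference -1 ± 0.25, limma adjusted p = 0.00807). Cdsn was at 155, 204, 123 and 286 RPKM in set A, against 302, 335, 337 and 377 RPKM in set B. All of set A lay below all of set B (-0.88 ± 0.20, 0.00466). Krtdap was at 1020, 1062, 734 and 1396 RPKM in set A, against 1084, 880, 818 and 875 RPKM in set B. Dmkn was at 508, 506, 368 and 821 RPKM in set A, against 690, 525, 532 and 501 RPKM in set B. The sets overlapped for Krtdap and Dmkn, and neither passed (0.17 ± 0.17 and -0.08 ± 0.18).

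Of the Lce1 genes, 2 of 14 passed, both lower in set A, where 15.5% of all tested genes were lower. Lce1m was at 35.6, 12.8, 15.9 and 30.2 RPKM in set A, against 117, 66.2, 69.4 and 57.6 RPKM in set B, without overlap (log2 difference -1.76 ± 0.42, limma adjusted p = 0.0059). Lce1l was the other (-0.91 ± 0.30, 0.0313), which did not pass without replicate 2 or 3 of set A or without replicate 1, 3 or 4 of set B (0.053 to 0.0916). Lce1a1 was at 66.6, 49.7, 40.3 and 90 RPKM in set A, against 115, 72.7, 89.5 and 77.7 RPKM in set B. All 14 differences were below 0 (-1.76 to -0.23), and without replicate 4 of set A, the highest Lce1 library of its set, 8 more Lce1 genes passed as lower.

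Of the 6 Lce3 genes 3 were higher in set A, and Lce3a (0.89 ± 0.34), Lce3c and Lce3d (0.81 ± 0.44) did not pass. Their sum was 61.8 to 112 RPKM in set A, against 38.1 to 57.6 RPKM in set B. Lce3e (9.19 ± 2.55 RPKM in set A, 3.2 ± 0.807 RPKM in set B) and Lce3f (13.6 ± 3.67 RPKM in set A, 4.87 ± 1.3 RPKM in set B) each differed by 1.38 on the log2 scale (limma adjusted p = 0.000546 and 0.0044). Neither overlapped between the sets. Lce3b passed as well (0.72 ± 0.22, 0.0228), which did not hold without replicate 1 or 2 of set A or without replicate 2 or 4 of set B (0.0569 to 0.0663). Lce3c was at 30.3, 31.2, 23.1 and 42.8 RPKM in set A, against 24.4, 16.4, 22.9 and 24.1 RPKM in set B, and did not pass. Lce6a was at 6.74, 6.89, 4.79 and 13.8 RPKM in set A, against 15.1, 10.6, 9.7 and 10 RPKM in set B, and did not pass either.

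Sprr1a was at 950, 924, 761 and 1164 RPKM in set A, against 2333, 3153, 2603 and 3642 RPKM in set B. The highest library of set A was below the lowest of set B (log2 difference -1.62 ± 0.29, limma adjusted p = 0.00111). Sprr4 was at 44.7, 34.7, 28.8 and 188 RPKM in set A, against 317, 684, 205 and 573 RPKM in set B (-2.88 ± 0.53, 0.00124). Replicate 4 of set A came close to set B in Sprr4 without reaching it, and the difference was -3.47 without it. Sprr1b was at 645, 619, 584 and 809 RPKM in set A, against 828, 666, 712 and 714 RPKM in set B. Its sets overlapped (-0.14 ± 0.67, 0.896). Sprr3 was below the filter, at 0.144 to 0.312 RPKM in set A, with 0.839 to 3.01 RPKM in set B.

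The Sprr2 sum was 1518, 1797, 1251 and 1894 RPKM in set A, against 1323, 857, 960 and 698 RPKM in set B. The sets overlapped in 1 library of set B, and the log2 difference of the sums was 0.77. Sprr2a3 was at 694, 694, 652 and 947 RPKM in set A, against 530, 253, 366 and 247 RPKM in set B. Sprr2d was at 309, 427, 209 and 324 RPKM in set A, against 222, 163, 145 and 116 RPKM in set B. Sprr2a3 did not overlap between the sets, and Sprr2d overlapped in 1 library of each.

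Sprr2b differed most. It was at 62.8, 129, 26.6 and 68 RPKM in set A, against 5.51, 5.61, 3.18 and 3.29 RPKM in set B, a log2 difference of 3.71 ± 0.42 (limma adjusted p = 4.97e-05). Sprr2a3 (1.15 ± 0.38, 0.0324) and Sprr2d (0.97 ± 0.35, 0.0488) passed with little margin. Sprr2a3 did not pass with set A replicate 1, 3 or 4 left out, nor with set B replicate 2, 3 or 4 left out (0.0504 to 0.0959). Sprr2d did not pass when any 1 of the unwounded tamoxifen libraries was left out, nor without set A replicate 1, 2 or 4 or set B replicate 2, 3 or 4 (0.0559 to 0.137). Sprr2k was lower in set A (1.93 ± 0.662 RPKM in set A, 5.87 ± 3.34 RPKM in set B, -1.31 ± 0.26, 0.00184). The other 8 did not pass.

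Tamoxifen against vehicle in unwounded skin and set A against set B share no library. Of the 47 members tested, 21 had opposite signs in the 2 comparisons and 26 the same sign. Of the 12 that passed in both, 10 had opposite signs (Cdsn, Sprr2a3, Sprr2b, Sprr2d, Sprr1a, Sprr4, Lce3e, Lce3f, Crnn and Tchhl1) and 2 the same sign (Lce1l and Flg2). In unwounded skin Lce3e and Lce3f were tested only because wounded libraries met the filter. Over all genes 76.6% of the 13922 tested and 96.2% of the 3755 that passed in both had opposite signs, so opposite signs are not particular to the members. The treatment names cannot be checked from these genes.

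**Figure D3:**
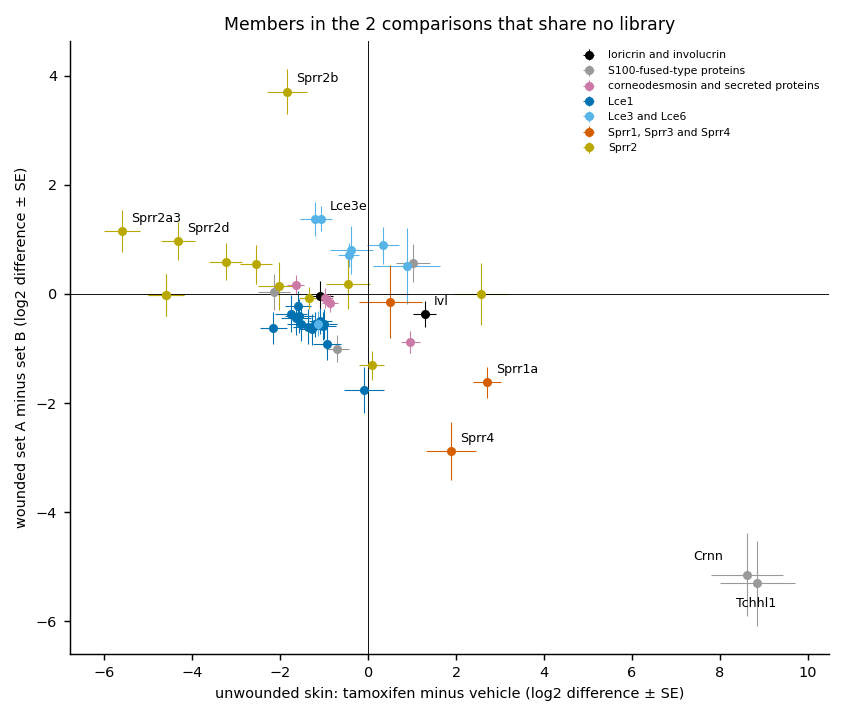
Log2 difference of each tested member in unwounded skin (tamoxifen minus vehicle, horizontal) and between the wounded sets (set A minus set B, vertical), with standard errors as bars and colours for the roles. Crnn, Tchhl1, Sprr1a and Sprr4 lie to the lower right, and Sprr2a3, Sprr2b, Sprr2d and Lce3e to the upper left. The Lce1 genes other than Lce1m lie near each other to the lower left, and Lce1m lies apart, below and to the right of them.

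Wounded skin of day 4 was compared with unwounded skin of day 0 as the mean of sets A and B against the mean of both unwounded groups, which does not depend on the treatment names. All 12 Sprr2 genes, all 6 Lce3 genes, Sprr1b and Rptn were higher in wounded skin, and Flg2, Lce1m, Lor and Ivl were lower. Of 47 members 24 rose, 6 fell and 17 did not pass, where 56.4% of all tested genes passed (26.9% higher, 29.5% lower). The median log2 difference was 0.62 over the members and -0.02 over all genes. In 17 members every wounded library exceeded every unwounded library and in 1, Flg2, every wounded library was below, where 5.7% and 3.97% of all tested genes did so (9.68% in all). Lce3a, Lce3b, Lce3e, Lce3f, Sprr2j-ps and Sprr2k met the filter of 1 RPKM in 3 libraries only through wounded libraries. The filter thus favoured a rise in these members, and the counts here are not independent of it.

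Sprr1b was at 584 to 828 RPKM in the 8 wounded libraries (median of set A 632, of set B 713) and at 9.13 to 141 RPKM in the 7 unwounded libraries, without overlap. It rose by 3.88 ± 0.49 on the log2 scale (limma adjusted p = 1.8e-05). Sprr1a did not pass (0.23 ± 0.22, 0.392), and its levels in set B and in unwounded tamoxifen skin lay above those in set A and unwounded vehicle skin. Sprr4 did not pass either (-0.35 ± 0.39).

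The Sprr2 sum was 1251 to 1894 RPKM in set A, with 698 to 1323 RPKM in set B, above all unwounded libraries, at 26.3 to 131 RPKM with tamoxifen and 193 to 645 RPKM with vehicle. Among single copies, Sprr2d (5.20 ± 0.26 on the log2 scale, limma adjusted p = 3.86e-09), Sprr2i (4.74 ± 0.25) and Sprr2e (4.41 ± 0.26) rose most, and Sprr2h least (1.99 ± 0.42). Sprr2d was at 116 to 427 RPKM in wounded libraries and at 0.716 to 48.2 RPKM in unwounded ones. In 9 of the 12 genes wounded and unwounded libraries did not overlap. The exceptions were Sprr2a3, Sprr2b and Sprr2h. Among the 9, Sprr2j-ps and Sprr2k met the filter only through wounded libraries.

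The Lce3 genes rose by 2.34 (Lce3c) to 3.38 (Lce3f) on the log2 scale, and none of the 6 overlapped between wounded and unwounded libraries. Of these, Lce3a, Lce3b, Lce3e and Lce3f met the filter only through wounded libraries. Lce3c averaged 31.9 ± 8.14 RPKM in set A, with 21.9 ± 3.77 RPKM in set B, against 11 ± 8.87 RPKM in unwounded tamoxifen skin and 4.25 ± 3.31 RPKM in unwounded vehicle skin. Its difference was 1.72 without replicate 2 of the unwounded tamoxifen group. Of the Lce1 genes Lce1e, Lce1f and Lce1g rose (0.70, 0.93 and 1.2), Lce1m and Lce1l fell (-1.76 ± 0.31 and -0.81 ± 0.22) and 9 did not pass. Over all tested genes 26.9% were higher and 29.5% lower, a larger share than among the Lce1 genes in each direction. Lce1e lost its call without replicate 4 of the unwounded tamoxifen group (limma adjusted p = 0.0586).

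Rptn was at 30.1 to 96.2 RPKM in the 8 wounded libraries and at 6.21 to 24.5 RPKM in the 7 unwounded libraries (log2 difference 2.07 ± 0.26, limma adjusted p = 1.5e-05). Flg2 went the other way, at 7.81 to 31.4 RPKM in wounded and 40 to 80.1 RPKM in unwounded libraries (-1.65 ± 0.18, 5.92e-06). Neither gene overlapped. Lor fell by 0.68 and Ivl by 0.67 on the log2 scale, with overlap in both, and Krtdap rose by 0.62 ± 0.13. In the single comparisons below, Lor passed as lower only against unwounded vehicle skin, and Ivl only against unwounded tamoxifen skin. The fall of Cdsn (-0.38 ± 0.15, 0.0424) did not hold in 10 of the fits that left out 1 library (0.0506 to 0.0915): replicate 3 or 4 of the tamoxifen group, 1, 2 or 3 of the vehicle group, replicate 1 or 3 in set A, and 1, 2 or 3 in set B. Markers of other cells moved with the wound. All 5 macrophage markers (median log2 difference 1.26) and 4 of 7 basal keratinocyte markers passed as higher, and 1 basal marker as lower. Over all tested genes 26.9% passed as higher and 29.5% as lower. All 6 neutrophil markers passed as higher, with sums of 1452 to 3289 RPKM in set A, with 952 to 1728 RPKM in set B, against 14.7 to 38.4 RPKM in unwounded tamoxifen skin and 78.2 to 116 RPKM in unwounded vehicle skin. Their part in the member values was not tested.

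**Figure D4:**
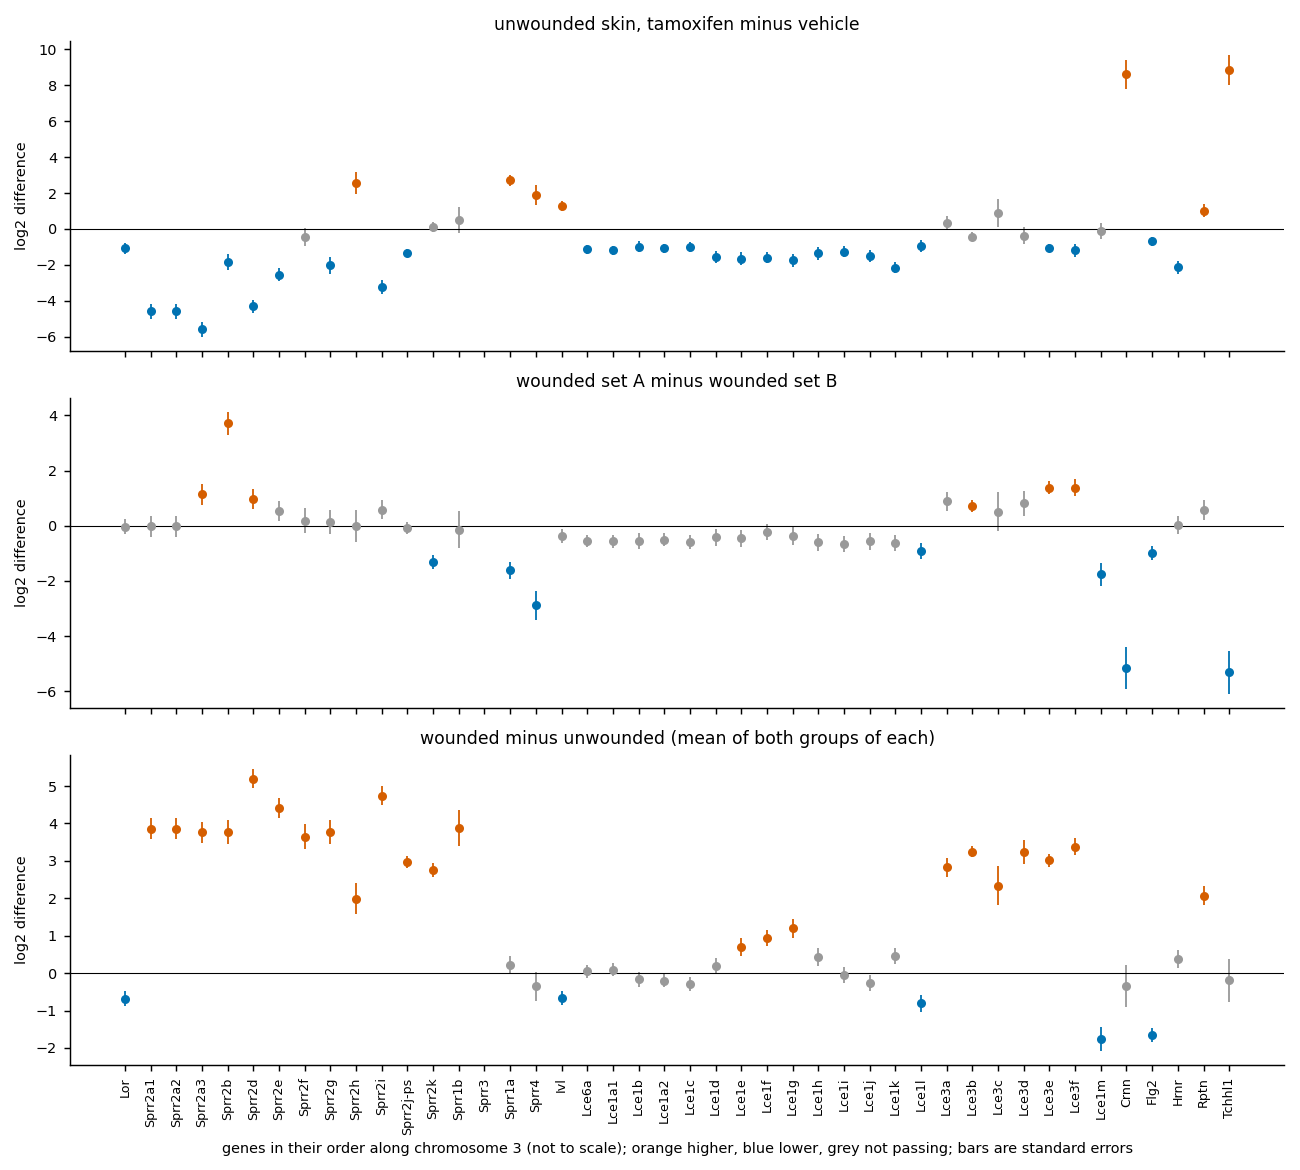
Log2 difference ± standard error of the members on chromosome 3, in gene order and not to scale, for the 3 comparisons (orange higher, blue lower, grey not passing). With tamoxifen 9 of 12 Sprr2 genes are lower, Sprr2h is higher and Sprr2f and Sprr2k are grey, and 13 of 14 Lce1 genes are lower, with Lce1m grey. With the wound all 12 Sprr2 genes and the 6 Lce3 genes are higher.

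The mean over both groups hides that wounding gave different values in the 4 single comparisons. These share groups with each other and with the comparisons above, so they are given side by side. Set A against unwounded vehicle skin had 20 members higher and 13 lower, where 39.8% of all genes passed (20.4% higher, 19.4% lower). Set B against unwounded vehicle skin had 23 higher and 5 lower, where 59.2% passed (30.7% higher, 28.6% lower). Set A against unwounded tamoxifen skin had 27 higher and 9 lower, where 65.4% passed (31.3% higher, 34.1% lower). Set B against unwounded tamoxifen skin had 30 higher and 3 lower, where 54.8% passed (25.9% higher, 28.9% lower). Sprr2 genes were higher in 12, 10, 11 and 11 of 12 in this order. Lce3a, Lce3b, Lce3e, Lce3f, Sprr2j-ps and Sprr2k met the filter only through wounded libraries. The filter thus favoured a rise in these members here too, and the higher counts are not independent of it. Against vehicle skin, 0 Lce1 genes were higher and 9 (set A) or 2 (set B) were lower. The 2 in set B, Lce1j and Lce1l, each lost the call without several single libraries. Against tamoxifen skin 5 (set A) or 8 (set B) were higher and 2 or 0 lower. In set A, Lce1l (lower) did not pass without tamoxifen replicate 2 or 3, or set A replicate 2 or 3 (limma adjusted p = 0.0682 to 0.184), and Lce1h (higher) failed in most fits that left out 1 library (up to 0.174). In set B, Lce1d failed without tamoxifen replicate 4 (0.0519), and Lce1i without it (0.118) or set B replicate 1 (0.0682).

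Lor was lower in both sets than in unwounded vehicle skin (log2 difference -1.24 ± 0.27 in set A and -1.22 ± 0.27 in set B). Against unwounded tamoxifen skin, where Lor was already low, it did not pass (-0.15 ± 0.30 and -0.13 ± 0.30). Sprr1a was higher in set B than in unwounded vehicle skin (2.38 ± 0.29, limma adjusted p = 1.34e-05). In set A the same difference was 0.76 ± 0.29 (0.0524). Against unwounded tamoxifen skin Sprr1a was lower in set A (-1.93 ± 0.32) and did not pass in set B (-0.31 ± 0.32). Krtdap did not pass against unwounded vehicle skin in either set (-0.12 and -0.29) and was higher than in unwounded tamoxifen skin in both (1.53 ± 0.19 in set A and 1.36 ± 0.19 in set B).

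Set A minus unwounded vehicle skin had its highest passing log2 differences at 4.71 ± 0.42 for Sprr2b, 4.06 ± 0.67 for Sprr1b, 3.52 ± 0.35 for Sprr2d and 3.51 ± 0.46 for Sprr2f. The lowest were -2.68 ± 0.42 for Lce1m, -2.49 ± 0.25 for Flg2, -1.74 ± 0.30 for Lce1l and -1.31 ± 0.30 for Lce1j. Set B minus unwounded vehicle skin had its highest passing log2 differences at 6.88 ± 0.78 for Tchhl1, 6.54 ± 0.76 for Crnn, 4.2 ± 0.67 for Sprr1b and 3.45 ± 0.26 for Sprr2k. Of these, Sprr2k met the filter only through wounded libraries, and 3 of its 4 vehicle libraries were at or under 3 reads. The lowest were -1.49 ± 0.25 for Flg2, -1.22 ± 0.27 for Lor, -0.83 ± 0.30 for Lce1l and -0.75 ± 0.30 for Lce1j. Set A minus unwounded tamoxifen skin had its highest passing log2 differences at 7.85 ± 0.38 for Sprr2d, 7.14 ± 0.41 for Sprr2a3, 6.66 ± 0.37 for Sprr2i and 6.55 ± 0.45 for Sprr2b. The lowest were -7.26 ± 0.85 for Tchhl1, -7.22 ± 0.82 for Crnn, -2.74 ± 0.57 for Sprr4 and -2.59 ± 0.45 for Lce1m. Set B minus unwounded tamoxifen skin had its highest passing log2 differences at 6.88 ± 0.38 for Sprr2d, 6.16 ± 0.41 for Sprr2a1 with its equal copy Sprr2a2, and 6.07 ± 0.37 for Sprr2i. The lowest were -2.07 ± 0.82 for Crnn, -1.13 ± 0.26 for Ivl and -0.80 ± 0.27 for Flg2. Sprr2 copies led the higher end against tamoxifen skin, and Flg2 was among the lowest in 3 of the 4. Without replicate 2 of set A, the set A minus tamoxifen difference was -8.32 for Crnn and -8.40 for Tchhl1, and without its replicate 4 it was -3.34 for Sprr4. The Crnn difference of set B from tamoxifen skin did not pass in most fits that left out 1 library (limma adjusted p up to 0.115), and that of Flg2 not without tamoxifen replicate 2 or set B replicate 2 or 4. The vehicle comparisons of Sprr1b ran from 3.38 to 4.68 in set A and from 3.52 to 4.82 in set B, without vehicle replicate 4 or 2.

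The interaction asks whether the wound changed a gene differently in tamoxifen and vehicle skin. It was fitted under both namings, which contain the same 4 groups and differ only in the sign of set A minus set B. By the sample records 22 members were higher and 9 lower, where 68.5% of all genes passed (33.9% higher, 34.6% lower). By the gene tables' names 30 were higher and 5 lower, where 40% passed (19.7% higher, 20.2% lower). The term is signed. A higher value means that wounded minus unwounded was greater in tamoxifen than in vehicle skin, which can be a larger rise or a smaller fall. Sprr2a3, Sprr2a1 and Sprr2d were higher under both, at 6.74, 4.57 and 5.29 by the records and 4.43, 4.62 and 3.36 by the gene tables. Crnn and Tchhl1 were lower under both, and by the gene tables' names neither passed without replicate 3 or 4 of the tamoxifen group or replicate 1 of set B (0.0503 to 0.0569). Sprr1a was at -4.32 ± 0.43 by the records (limma adjusted p = 1.15e-06) and -1.08 ± 0.43 by the gene tables (0.0615). All 14 Lce1 genes were higher by the gene tables' names (1.55 to 2.78), while by the records 5 were higher and 1, Lce1m, lower. Lce1m lost its call when any 1 of several libraries was left out (0.0524 to 0.0678 by the gene tables, 0.0515 to 0.0722 by the records). Without tamoxifen replicate 4, Lce1d, Lce1e and Lce1g did not pass by the records (0.0708 to 0.107), and Lce1d and Lce1e also failed without other single libraries.

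The make-up of the summed member levels, per length, shifted between groups. Sprr1, Sprr3 and Sprr4 together made up 27.3% ± 2.06 in set A (SD, n = 4), 49.2% ± 7.23 in set B (n = 4), 57.4% ± 8.72 in unwounded tamoxifen skin (n = 3) and 14.4% ± 4.99 in unwounded vehicle skin (n = 4). The corneodesmosin and secreted class made up 34.2% ± 1.93 in set A, 26.4% ± 1.95 in set B, 21.6% ± 5.33 with tamoxifen and 52% ± 4.23 with vehicle. The Sprr2 share was 26.2% ± 2.61 in set A, 11.6% ± 3.19 in set B, 1.2% ± 0.653 with tamoxifen and 7.93% ± 3.78 with vehicle. Sprr1a alone held 42.7% to 57.7% of the sum in the tamoxifen libraries and 7.87% to 14.9% in the vehicle libraries. The shares are parts of a whole, so a rise in any class lowers the others.

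**Figure D5:**
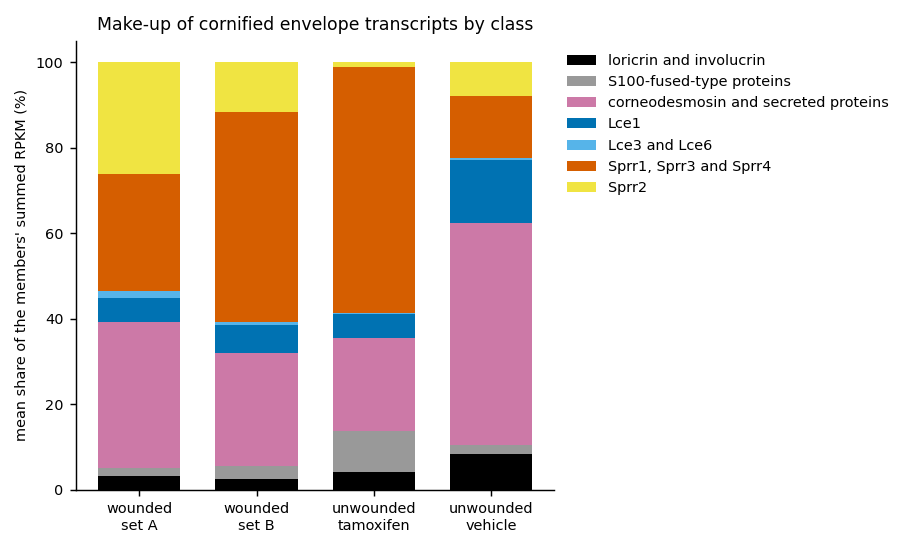
Mean share (%) of each role class in the summed RPKM of the 48 members, for the 4 groups. The Sprr1, Sprr3 and Sprr4 class is widest in unwounded tamoxifen skin (57.4%), the corneodesmosin and secreted class in unwounded vehicle skin (52%) and Sprr2 in set A (26.2%).

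By mean level the order of the members differed between groups. Krtdap led in set A (1053 ± 271 RPKM, n = 4) and Sprr1a followed (950 ± 166 RPKM), a gap smaller than the SD of either. In set B Sprr1a led (2933 ± 583 RPKM) with Krtdap next (914 ± 117 RPKM). In unwounded tamoxifen skin Sprr1a (3728 ± 1173 RPKM, n = 3) was followed by Cdsn, Sprr4, Krtdap and Dmkn, at 452, 376, 361 and 358 RPKM. Among these 4, neighbours in the order differed by less than the larger SD of the pair, while Cdsn lay far below Sprr1a. In unwounded vehicle skin Krtdap led (1116 ± 98.1 RPKM, n = 4) with Dmkn next (708 ± 20.2 RPKM), and Sprr1a and Sbsn followed at 597 ± 261 and 587 ± 32.7 RPKM.

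Other genes of cornification were counted for tamoxifen against vehicle in unwounded skin, where 69.4% of all tested genes passed, 34.7% in each direction. The share that passed in either direction was below this in the proteases and the barrier lipid genes. Of 6 cross-linking enzymes 4 rose and 1, Tgm5, fell. Padi1, a peptidylarginine deiminase, averaged 53.4 ± 17.3 RPKM with tamoxifen and 0.09 ± 0.0426 RPKM with vehicle (log2 difference 6.46 ± 0.43), and Tgm3, a transglutaminase, 45.9 ± 12.5 RPKM with tamoxifen and 2.94 ± 0.451 RPKM with vehicle (3.72 ± 0.25). Both are also known in the hair follicle. Of 7 plakin and desmosomal partners 6 rose and 0 fell, with Evpl, which encodes envoplakin, at 1.32 ± 0.18. Of 9 proteases and inhibitors 4 rose and 0 fell, with the protease genes St14 at 1.92 ± 0.20 and Prss8 at 1.58 ± 0.25.

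Of 11 barrier lipid genes 2 rose and 5 fell, with Elovl4, a fatty acid elongase, at -1.64 ± 0.25. Of 10 transcription factors of terminal differentiation 7 rose and 1, Klf4, fell, with Ovol1 at 1.80 ± 0.23 and Prdm1 at 1.44 ± 0.18. All 4 tested suprabasal keratins fell. Krt1 averaged 173 ± 67.5 RPKM with tamoxifen and 866 ± 220 RPKM with vehicle (-2.37 ± 0.37), and Krt10 903 ± 232 RPKM with tamoxifen and 2711 ± 111 RPKM with vehicle (-1.62 ± 0.27). Between the wounded sets, Krt1 and Krt10 were higher in set A (1.17 ± 0.34 and 0.86 ± 0.25), and 6 of 7 plakin and desmosomal partners and 6 of 9 proteases and inhibitors were lower, where 15.5% of all tested genes were lower. All 4 wound-activated keratins were higher in wounded than in unwounded skin (median 4.21), where 26.9% of all tested genes were higher.

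Markers of other cells of the skin gave the following counts for tamoxifen against vehicle in unwounded skin, beside 34.7% of all tested genes in each direction. Of 7 basal keratinocyte markers 0 rose and 3 fell (median log2 difference -0.30). All 6 fibroblast markers fell (median -1.79, sums of 1559 to 3750 RPKM with tamoxifen and 4884 to 9237 RPKM with vehicle), as did all 5 macrophage markers (-3.03) and 4 of 6 neutrophil markers. By the smallest p in each list, the log2 differences were -0.35 ± 0.08 for Itga6 and -0.37 ± 0.12 for Col17a1, both of basal keratinocytes. They were -2.02 ± 0.16 for Pdgfra and -1.09 ± 0.12 for Dcn of fibroblasts, -3.03 ± 0.17 for Cd163 and -3.21 ± 0.20 for Mrc1 of macrophages, and -1.98 ± 0.25 for Csf3r and -2.53 ± 0.41 for S100a9 of neutrophils. Among hair genes Krt72 was at 9.32 ± 0.94 and Krt86 at 9.55 ± 0.98, and among wound-activated keratins Krt6b was at -4.23 ± 0.50 and Krt17 at 1.84 ± 0.26. Dsc1, a desmosomal cadherin, was at 0.84 ± 0.15, and Krt24, the tested oral marker, did not pass (-0.80 ± 0.38). Crnn is known from the oesophagus, and the 4 oral and oesophageal markers summed to 3.13 to 5.35 RPKM with tamoxifen and 6.07 to 8.11 RPKM with vehicle. No marker of these lists was at 0 in every library, and their part in the member values was not tested.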

How the data were processed

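RNA sequencing of mouse skin gave 15 libraries. The authors mapped reads to mm10 and deposited RPKM per gene, per the file headers; the submitters' processing notes list bcl2fastq, TopHat2 2.1.0 and Partek. A deposited sheet gives the count of alignments per library, 39277860 to 75102345. No source used here gives the annotation, the rule for shared reads or whether strand was used, so values of close copies and overlapping genes are uncertain. Count models were not used on RPKM.

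Members and gene lists were chosen with earlier results of these data known. The test was limma 3.58.1 (two-sided, R 4.3.3, trend) of log2(RPKM + 0.5) for the 13922 genes with at least 1 RPKM in at least 3 libraries, in 1 model of 4 groups over all 15 libraries (11 residual degrees of freedom). Every adjusted p is limma's, by Benjamini-Hochberg over those genes, with a threshold of 0.05. There were 9 comparisons. Errors beside log2 differences are standard errors, and those beside RPKM means are SDs. Of 720 member values 10 were exactly 0 and 3 lay between 0 and 1e-06. Values in every library are given for the 2 members with the highest mean in each role class and for the Sprr2 sum, which has no test. In each comparison the 4 largest and 4 smallest differences among passing members are named, and from the other lists the 2 genes with the smallest p for tamoxifen against vehicle; further members were named after their values were seen, to complete a class. A gene of the barrier lipid list that this rule names is not reported here. Pairing by replicate number was checked from the libraries' deviations from group means. Between sets A and B the correlation was 0.123 to 0.43 in the 4 pairs of equal number, all over 0.1. No other 2 groups met this, though replicate 3 of unwounded vehicle skin and of set A reached 0.425. These values do not establish that the numbers pair the libraries. Sequences come from RefSeq (promoters, GRCm38.p6) and GENCODE M21 (coding sequence, mm10), read with Python 3.11.15, pandas 2.3.3 and numpy 2.4.6. The script for the differences was tested on simulated data.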

Additional observations from a re-analysis of the deposited data

Results flagged for a closer look

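Single libraries lay far from the rest of their group in 5 of 45 groups of 4 checked (15 values shown by library in 3 groups of 4; chance gives about 1 in 20). On the log2 scale the gap to the nearest library, as a part of the group's range, was above Dixon's critical value. Replicate 2 of set A held Crnn at 19.1 RPKM, against 0.273 to 0.713 RPKM in the other 3 libraries, and Tchhl1 at 22.0 RPKM, against 0.261 to 0.768 RPKM. Replicate 1 of set B held Tchhl1 at 49.1 RPKM, against 92.3 to 100 RPKM. The hair marker sum was also highest in that library of set A (1426 RPKM) and lowest in that library of set B (2661 RPKM). Lce3c was at 16.4 RPKM in replicate 2 of set B, against 22.9 to 24.4 RPKM. Sprr2a3 was at 947 RPKM in replicate 4 of set A, against 652 to 694 RPKM.

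The change with the wound differed between tamoxifen and vehicle skin by limma's interaction term. Under the names of the sample records the interaction (log2 scale) was 6.74 for Sprr2a3, 5.56 for Sprr2b, 5.29 for Sprr2d and 4.57 for Sprr2a1, with adjusted p = 2.96e-06 for Sprr2b and 8.38e-06 for Sprr2a1. It was -14.15 for Tchhl1, -13.75 for Crnn, -4.77 for Sprr4 and -4.32 for Sprr1a. Under the gene tables' names it was 4.62 for Sprr2a1 and for its equal copy Sprr2a2, 4.43 for Sprr2a3 and 3.36 for Sprr2d. It was -3.55 for Tchhl1 (0.0257), -3.46 for Crnn (0.0254), -2.57 for Sprr2h (0.0256) and -1.87 for Sprr2b (0.0269). Each of these 4 lost its call in some fits that left out 1 library (adjusted p = 0.0501 to 0.075). Without replicate 2 of set A the values of Crnn and Tchhl1 were -2.36 and -2.41, and without replicate 2 of the tamoxifen group that of Sprr2h was -3.41. Sprr2b therefore had opposite signs under the 2 namings, since its set A minus set B difference (3.71) exceeded its difference in unwounded skin (-1.85).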

How the results depend on the processing

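Counts of members passing stayed within 1.5 times the main count in 194 of 195 alternatives run. The exception was set A against set B without replicate 4 of set A, at 23 against 15, with a range of 11 to 23 over single libraries left out. With the replicate number as a block, 38 members passed for tamoxifen against vehicle in unwounded skin and 15 for set A against set B. The count was 29 for wounded against unwounded skin, and 28 and 34 for the interactions by the records and by the gene tables' names. The block ended the calls of Flg2 for tamoxifen against vehicle (limma adjusted p = 0.0573) and Cdsn for the wound (0.0577). Among the single wound comparisons and the interactions it ended those of Crnn and Lce1i (set B against tamoxifen), Lce1h and Lce3c (set A against tamoxifen), Lor (both interactions) and Lce1d and Lce1e (records), and Sprr2b gained a call (set B against vehicle). For named members 2074 of 2166 alternatives kept the direction and the side of the threshold, 66 lost the call, 8 gained it and 18 changed direction. None of those that changed direction had passed. Over single libraries left out, Lce1m for tamoxifen against vehicle ranged from -0.44 to 0.15, Sprr1b from -0.18 to 1.12, Lor for set A against set B from -0.33 to 0.19 and Dmkn from -0.29 to 0.09. For the wound Lce1a1 ranged from -0.01 to 0.18 and Tchhl1 from -0.76 to 0.06. Lce1m for tamoxifen against vehicle was at 0.01 with the block and at 0.08, 0.15 and 0.13 without replicate 3 of the tamoxifen group or replicate 3 or 4 of the vehicle group, and Sprr1b was at -0.18 without the last. For set A against set B, Lor was at 0.04 and 0.19 without replicate 2 or 3 of set A and 0.12 and 0.01 without replicate 1 or 3 of set B, and Dmkn at 0.09 and 0.02 without replicate 3 of set A or 1 of set B. For the wound, Tchhl1 was at 0.12 with a pseudocount of 0.1 and at 0.02 and 0.06 without replicate 1 or 4 of set A. Lce6a was at -0.08 with library weights and at -0.09 and -0.01 without replicate 4 of set A or 1 of set B, and Lce1a1 at -0.01 without replicate 4 of set A. The cause was not tested.

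The interaction of Sprr2b by the gene tables' names was -0.94 and lost its call with a pseudocount of 0.1. The log2 difference of Sprr2 sums without Sprr2a2, an alternative chosen after seeing the data, was -2.21 for tamoxifen against vehicle, 0.83 for set A against set B and 2.84 for the wound, against -2.31, 0.77 and 2.88. Leaving Crnn and Tchhl1 out of the counts was also chosen after seeing the data. Median-of-ratios scaling moved the median of all genes by at most 0.03. It ended the calls of Sprr2d for set A against set B (limma adjusted p = 0.0503) and Cdsn for the wound (0.0505). Without the filter on low values Lce1l, Sprr2a3 and Sprr2d lost theirs between the sets (0.052, 0.0542 and 0.0771). Flg2 did so for tamoxifen against vehicle (0.0512) and Cdsn for the wound (0.0645). A pseudocount of 0.1 ended the calls of Lce3b (0.139) and Sprr2d (0.0521) between the sets. With it Lce3b gained a call for tamoxifen against vehicle. Depth limits the lowest members: Sprr3, Sprr2k, Sprr2j-ps, Lce3e and Lce3f were at or under 3 reads in most libraries of at least 1 unwounded group. For tamoxifen against vehicle, a fit of the unwounded groups alone left Lce3e, Lce3f and Sprr2j-ps under the filter and untested.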

Other observations

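Within unwounded vehicle skin the libraries took 2 levels in several members. Sprr1b was at 93.1 and 141 RPKM in replicates 1 and 2 and at 18.6 and 9.13 RPKM in replicates 3 and 4, and Sprr1a at 818 and 828 RPKM and at 353 and 391 RPKM. Sprr2a3 was at 457 and 426 RPKM and at 126 and 164 RPKM, and Krt6b, a wound-activated keratin, at 154 and 202 RPKM and at 51.7 and 29.3 RPKM. Lce1m ran the other way, at 109 and 68.9 RPKM and at 239 and 227 RPKM. No source used here says what the replicate numbers mark, and no test was made on this split, which was seen in the values.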
